A study of Mus musculus with 46 samples.

Results

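The noninfarct part of the left ventricle was compared between MRL/MpJ and C57BL/6J mice on day 1 after a coronary artery was tied. The arrays were chosen by their titles alone: 4 MRL and 4 C57 arrays of noninfarct tissue at day 1, which are 8 of the 46 arrays of the series. All 22626 probe sets that are no Affymetrix controls were considered, and the rule uses no measured value.

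The study asked how hearts of both strains respond to acute myocardial infarction. Male mice of both strains, aged 15 to 20 weeks, had the left coronary artery occluded with a suture and were killed 1 or 5 days later, and the day 0 hearts came from healthy mice that had no surgery. Noninfarct tissue is what remained of the left ventricle once the infarct region had been taken out with a biopsy punch. Total RNA of the tissue was labelled with biotin and hybridised to Affymetrix MOE430A arrays. The MRL and C57 day 1 groups therefore share the sex, the age range, the anaesthesia, the ligation, the analgesic and the time after surgery, and they differ in strain. No group here had sham surgery, so surgery and infarction cannot be told apart in a change from day 0. Each array is called a biological replicate in the labels, and no label ties an infarct array to the noninfarct array of its heart. Day 0 noninfarct tissue has 3 C57 and 4 MRL arrays, and day 5 has 4 of each strain.

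C57BL/6J is the most widely used inbred laboratory mouse, and MRL/MpJ is an inbred strain known for closing ear punch wounds with little scar. Within a day of an infarction the surviving muscle works against a raised load, while stress hormones, acute phase proteins and cells of the blood reach the whole ventricle. Differences between inbred strains at any time can be inherited, as for the genes of the major histocompatibility complex (MHC), of which strains carry different alleles.

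Values are intensities of probe sets on the log2 scale, where a difference of 1 is a 2-fold change, and differences are MRL minus C57 throughout. The array medians over all 46 arrays lay between 4.22 and 4.48. Pairs of day 1 arrays correlated at 0.959 to 0.986 within a strain and at 0.941 to 0.976 between strains, over all analysed probe sets. The first principal component of the 8 arrays held 37.6% of the variance. MRL replicate 3 scored -1.22 on it and C57 replicate 2 scored -3.11, beside -33.51 to -20.64 in the other MRL arrays and 12.04 to 42.89 in the other C57 arrays, so those 2 arrays lay between the strains and crossed over. The heart muscle gene list gave a mean level of 12.89 to 13.10 in the C57 arrays and 13.03 to 13.19 in the MRL arrays, so genes of heart muscle were high in all 8 arrays, as the tissue label says. The Gapdh control probe sets at the 3' and 5' ends of the transcript, a measure of RNA integrity, differed by -0.13 ± 0.14 (SD, n = 4) in C57 and by -0.26 ± 0.12 (SD, n = 4) in MRL, with an exact two-sided permutation p of 0.20, where 0.0286 is the smallest that 4 against 4 arrays allow. The highest values were 0.07 in C57 replicate 2 and -0.09 in MRL replicate 3, the same arrays that crossed over. The other C57 arrays gave -0.25 to -0.14 and the other MRL arrays -0.35 to -0.30. Without MRL replicate 3 the permutation p was 0.057. Whether RNA integrity bears on the values below was not tested. The labels give no batch or scan date. The tissue was not sorted, so fewer cells of a type and less RNA per cell cannot be told apart in any value below.

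Of the 12344 probe sets tested, 342 (2.77%) passed an adjusted p under 0.05 in limma's test with Benjamini-Hochberg adjustment, and these are the probe sets called here. They were 177 (1.43%) with higher and 165 (1.34%) with lower values in MRL hearts, a split that moved to 225 higher and 128 lower without C57 replicate 3. The median absolute difference of the called probe sets was 1.18, and 63 of them differed by more than 2. In 299 of the 342 the 4 MRL and the 4 C57 arrays did not overlap, beside 965 (7.82%) of all probe sets tested. With 1 probe set per gene, 188 of 7322 genes (2.57%) were called, 108 (1.48%) higher and 80 (1.09%) lower in MRL, while the median difference over all tested probe sets was 0.02. The count depends on the arrays: it was 203 without C57 replicate 1, 209 without MRL replicate 1, 526 without C57 replicate 2, and 632 without C57 day 5 replicate 3, which enters only through the shared spread. The C57 day 5 arrays spread widely in some genes with large strain differences. Their SD was 2.03 for B4galnt2 and 1.50 for Pam, beside 0.06 and 0.03 in the C57 day 1 arrays. A fit on the 8 arrays alone called 211.

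**Figure D1:**
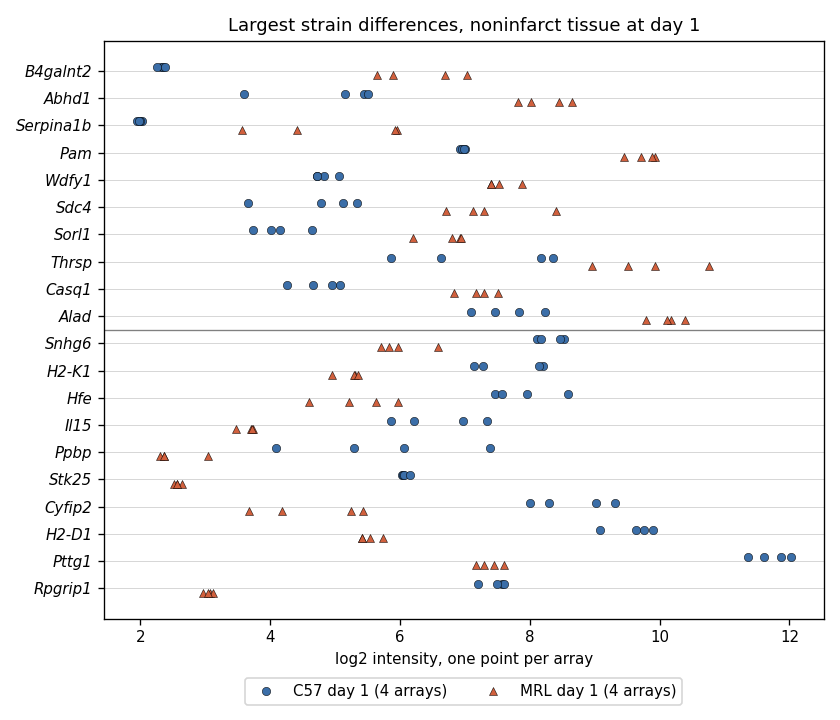
Log2 intensity of the 10 genes with the largest higher values in MRL (upper part) and the 10 with the largest lower values (lower part), 1 row per gene and 1 point per array, for the 4 C57 (circles) and 4 MRL (triangles) day 1 noninfarct arrays. In each row the strains do not overlap, which is part of the rule by which the genes were chosen. From B4galnt2 at 3.98 the differences run to Rpgrip1 at -4.42.

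Among genes with higher values in MRL the largest difference was that of B4galnt2, which adds N-acetylgalactosamine to carbohydrate chains. Its log2 intensity was 2.33, 2.35, 2.26 and 2.39 in the 4 C57 arrays and 5.65, 6.69, 7.03 and 5.89 in the 4 MRL arrays. Every C57 array lay below its array's median, and the MRL arrays lay well above theirs. The difference was 3.98 (SE 0.60, adjusted p 3.23e-04), and it was 4.05 at day 0 and 3.98 at day 5. Abhd1, a member of the alpha/beta hydrolase family, came next. In C57 replicates 1 to 4 it read 5.44, 3.60, 5.16 and 5.50, and in MRL replicates 1 to 4 it read 7.82, 8.02, 8.45 and 8.65. The C57 arrays spread more than the MRL arrays because replicate 2 was low, and the difference was 3.31 (SE 0.40, adjusted p 3.50e-05). Serpina1b, of the alpha-1 antitrypsin group of protease inhibitors, gave 1.95, 2.02, 1.99 and 1.98 in the C57 arrays and 5.96, 4.42, 5.92 and 3.57 in the MRL arrays. All C57 values lay at the bottom of the scale and the MRL values spread over more than 2 log2 units, so its difference of 2.98 (adjusted p 1.35e-04) is not an exact size, and near-identical members of its family may share the probes.

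Pam, which amidates secreted peptides and is rich in the heart's secretory granules, showed little spread. Values of 6.93, 7.01, 6.96 and 6.99 were measured in C57 and of 9.46, 9.93, 9.89 and 9.72 in MRL. The difference of 2.78 (SE 0.44, adjusted p 5.20e-04) was far larger than the spread within either strain, and it was 2.61 at day 0. Wdfy1, a protein that binds endosomal membranes, differed by 2.72 (adjusted p 6.69e-04), and Sorl1, a sorting receptor, by 2.58 (adjusted p 0.0019). The C57 mean of Sorl1, 4.14, lies below every array's median. Thrsp, a nuclear protein that promotes fat synthesis, gave 8.17, 5.87, 8.35 and 6.63 in the C57 arrays and 9.51, 8.96, 10.76 and 9.93 in the MRL arrays. The C57 arrays fell into a higher and a lower pair, both under the MRL arrays, and the difference was 2.54 (adjusted p 0.0073). That call ended in a fit on the 8 arrays alone, where the adjusted p was 0.078. Sdc4, a cell surface heparan sulfate proteoglycan, differed by 2.65 (adjusted p 0.043) in its brighter probe set and by -1.86 (adjusted p 0.011) in the other, so it has no settled direction.

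Among genes with lower values in MRL, Rpgrip1, a protein of the photoreceptor cilium, differed most. C57 hearts had 7.21, 7.57, 7.60 and 7.50, whereas MRL hearts had 3.08, 2.96, 3.11 and 3.05. The MRL arrays all lay near 3, below their medians, and the C57 arrays all lay above 7, a difference of -4.42 (SE 0.59, adjusted p 9.55e-05). Pttg1 encodes securin, which holds sister chromatids together until anaphase. Across the C57 arrays it stood at 11.87, 11.36, 12.03 and 11.61, and across the MRL arrays at 7.60, 7.17, 7.45 and 7.30. Its difference was -4.34 (SE 0.35, adjusted p 5.73e-07), the other tested probe set gave -3.75, and the difference was -4.44 at day 0 and -2.20 at day 5. Of the 26 tested genes of the cell cycle list 0 were called, and the list's median difference was 0.02.

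Cyfip2, part of a complex that regulates actin, gave 9.32, 8.00, 8.29 and 9.03 in the C57 arrays and 5.42, 3.67, 5.24 and 4.19 in the MRL arrays. Both strains spread over more than 1 log2 unit without touching, and the difference was -4.03 (adjusted p 9.55e-05). Stk25, a stress-responsive kinase, had the tightest groups of the genes with large differences. The C57 arrays gave 6.04, 6.05, 6.06 and 6.16, and the MRL arrays gave 2.57, 2.53, 2.65 and 2.57. Its difference was -3.50 (adjusted p 9.61e-05), with an MRL mean below every array's median. Il15, a cytokine that sustains natural killer and memory T cells, differed by -2.94 (SE 0.44, adjusted p 3.35e-04). Its C57 arrays gave 6.97, 6.22, 7.34 and 5.87, against 3.74, 3.71, 3.72 and 3.48 in MRL, and it differed by -3.39 at day 0. The MRL mean of 3.66 lies below every array's median. Snhg6, a noncoding host transcript of small nucleolar RNAs, differed by -2.29 (adjusted p 8.44e-05).

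Hfe, the protein whose loss causes hereditary iron overload, was lower in MRL in both its probe sets. Its log2 intensity was 7.95, 7.46, 8.58 and 7.57 in the 4 C57 arrays and 5.97, 5.22, 5.63 and 4.60 in the 4 MRL arrays. The difference was -2.53 (SE 0.26, adjusted p 6.90e-06) and -2.39 in the other probe set, beside -1.64 at day 0 and -0.79 at day 5. Alad, which catalyses an early step of heme synthesis, was higher in MRL. In C57 replicates 1 to 4 it read 7.84, 7.10, 8.23 and 7.47, and in MRL replicates 1 to 4 it read 10.18, 9.80, 10.39 and 10.11. No array of one strain came near the other, with a difference of 2.46 (SE 0.34, adjusted p 1.35e-04). Of 18 tested genes of iron, heme and metallothionein biology these 2 were the only calls, in opposite directions, and the list's median difference was -0.12.

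The classical MHC class I genes gave large values in both directions. H2-D1 gave 9.89, 9.09, 9.63 and 9.76 in the C57 arrays and 5.55, 5.42, 5.42 and 5.74 in the MRL arrays in its brightest probe set, a difference of -4.06 (adjusted p 3.23e-04). Its other 4 tested probe sets gave -2.26, -1.89, -1.10 and 3.74, of which that at -1.10 was not called. H2-K1 differed by -2.46 (adjusted p 0.011) in its brightest probe set, while the other 3 gave -6.58, -0.79 and -0.14, and only the first of these was called. The H2 genes are a family of near-identical and highly polymorphic members, so these values have no settled direction as expression. Whether the probe sequences differ between the strains was not tested. The 9 tested genes of the class I list, which also holds the peptide loading machinery, gave 0 higher and 2 lower calls and a median of 0.27. Outside the H2 genes B2m, the invariant light chain, differed by -0.23 and Tap2, the peptide transporter, by 0.51, and neither was called.

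A list of loci known to differ between inbred strains held 12 tested genes, of which 3 were called higher and 3 lower, with a median of -0.31. Glo1, which detoxifies methylglyoxal, showed one of the smallest spreads. Values of 8.59, 8.64, 8.74 and 8.82 were measured in C57 and of 10.33, 10.12, 10.38 and 10.35 in MRL. The difference of 1.60 (SE 0.15, adjusted p 3.67e-06) recurred in the other 2 probe sets at 1.64 and 1.55. Nnt is the mitochondrial transhydrogenase that regenerates NADPH, and C57BL/6J carries a known deletion in it. C57 hearts had 11.44, 11.17, 11.41 and 11.36, whereas MRL hearts had 12.36, 12.28, 12.34 and 12.15. The strains did not overlap, yet the difference was only 0.94 (adjusted p 0.0097), and the C57 level of 11.34 ± 0.12 (SD, n = 4) remained far above the array medians. Where the probes lie relative to the deletion was not examined, and in the fit on all 46 arrays the call ended at an adjusted p of 0.12. H2-Ea, a class II chain that C57BL/6 mice do not make, gave 5.17, 5.64, 5.02 and 5.81 in C57 and 5.27, 5.09, 4.37 and 5.08 in MRL. These overlap, and the difference of -0.46 was not called (adjusted p 0.34).

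Of 5 tested skeletal muscle genes 3 were higher in MRL hearts, on a list of 15. Acta1, the skeletal alpha-actin that the heart also makes in fetal life and under load, gave 11.38, 10.95, 11.34 and 10.95 in the C57 arrays and 13.17, 13.80, 13.30 and 13.31 in the MRL arrays. The lowest MRL array was above the highest C57 array by more than 1 log2 unit, and the difference was 2.24 (SE 0.34, adjusted p 3.27e-04). Casq1, the calcium buffer of skeletal sarcoplasmic reticulum, differed by 2.47 (SE 0.24, adjusted p 3.67e-06). Across the C57 arrays it stood at 4.95, 5.07, 4.25 and 4.66, and across the MRL arrays at 7.30, 7.18, 7.50 and 6.83. Myl1, a fast skeletal myosin light chain, differed by 1.51 (SE 0.17, adjusted p 2.04e-05). The C57 arrays gave 8.51, 8.69, 8.51 and 8.39, and the MRL arrays gave 9.72, 10.06, 10.28 and 10.07. The groups of all 3 genes stood apart. The other 2 tested genes, Eno3 at 0.33 and Ckm at 0.28, were not called. The mean level of those 5 was 9.97 to 10.22 in the C57 arrays and 11.35 to 11.53 in the MRL arrays, a median difference of 1.51 against 0.02 over all probe sets. At day 0 the list's median was 1.29 and the same 3 genes were called. The remaining 10 genes of the list did not pass the filter on low values and were not tested. Smyd1, a muscle methyltransferase chosen after its values were seen, differed by 1.97 (adjusted p 4.06e-04) and by 1.94 at day 0.

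The comparison with unoperated hearts shows how much of the day 1 difference was present beforehand. At day 0, on other arrays, 222 of 12344 probe sets (1.8%) were called between the strains. The tests of the 3 days share 1 estimate of the spread of each probe set, so their calls are not independent. Of the 342 day 1 calls, 136 (39.8%) were also called at day 0 in the same direction, which is 61.3% of the day 0 calls, and 0 were called in the opposite direction. The estimate had the same sign in 325 of the 342 (95.0%), against 62.6% of all tested probe sets. At day 5, with 154 calls (1.25%), 100 of the 342 (29.2%, and 64.9% of the day 5 calls) were called in the same direction and 0 in the opposite one. Without C57 day 5 replicate 3 the day 5 count was 471, and the C57 day 5 arrays spread widely in B4galnt2 and Pam. What this array does to the day 5 differences, as those of Pttg1 and Hfe, and to the counts over all days was not tested. On all 3 days 89 probe sets were called in the same direction, 63 higher and 26 lower in MRL, for 54 genes by the probe set used here, 41 higher and 13 lower. B4galnt2, Pam, Wdfy1, Casq1, Alad, Glo1, Myl1, Rpgrip1, Pttg1, H2-D1 and Stk25 are among them.

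**Figure D2:**
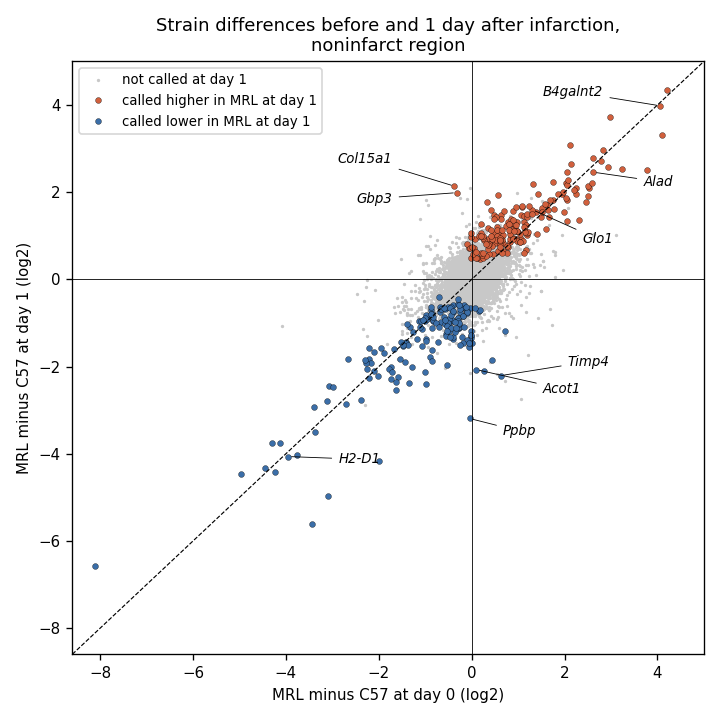
Difference between the strains (MRL minus C57, log2) at day 0 on the horizontal axis and at day 1 on the vertical axis, for the 12344 tested probe sets of noninfarct tissue. Coloured points were called at day 1, grey points were not, and the dashed line marks equal differences. Most coloured points lie along the line, as B4galnt2 does at 4.05 and 3.98, while Gbp3, Col15a1, Ppbp, Acot1 and Timp4 lie away from it.

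A test of the change in the strain difference from day 0 to day 1 called 1 of 12344 probe sets (0.0081%), and 413 (3.35%) had an unadjusted p under 0.05. That probe set was Gbp3, an interferon-induced guanylate-binding protein. Its log2 intensity was 4.00, 3.87, 3.77 and 3.49 in the 4 C57 arrays and 6.44, 5.61, 5.66 and 5.39 in the 4 MRL arrays. The highest C57 array stood more than 1 log2 unit under the lowest MRL array, and the day 1 difference was 1.99 (SE 0.21, adjusted p 1.01e-05). At day 0 the difference was -0.32, and the change between the days was 2.31 (adjusted p 0.0044). From day 0 to day 1, 492 of 12344 probe sets (3.99%) were called in C57 hearts and 121 (0.98%) in MRL hearts. In C57 hearts Gbp3 fell by 2.22 over that day (adjusted p 9.95e-06), whereas in MRL hearts it moved by 0.10 (adjusted p 0.93); both values share their day 1 arrays with the strain comparison. At day 5 the strain difference was 0.57 and was not called. The C57 day 1 mean lies below every array's median, the change between the days was no longer called with an offset of 32 added to the intensities (1.14, adjusted p 0.11) or in a fit on the 4 groups alone (adjusted p 0.058), and probes may be shared among Gbp genes.

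**Figure D3:**
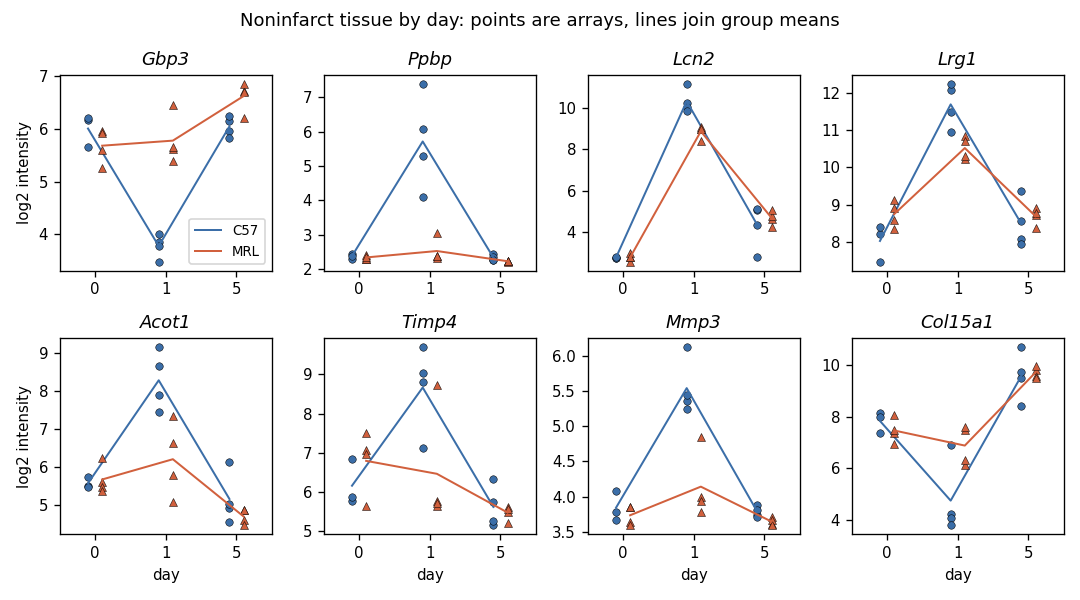
Log2 intensity in noninfarct tissue by day for 8 genes, in C57 (circles) and MRL (triangles), with 1 point per array and lines joining the group means. In C57 hearts Gbp3 and Col15a1 dip at day 1 and the other 6 genes peak at day 1, and the MRL means lie closer to their day 0 level in each panel. The genes were chosen after their values were seen.

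A group of called genes that includes Gbp3 did not show the day 1 difference, or showed little of it, at day 0. A limit of 0.25 on the day 0 difference in the direction of the call, set after the values were seen, gave 35 such genes of the 188 called, 15 higher and 20 lower in MRL. The limit does not bound a difference the other way, which was 0.72 at day 0 for Lrg1, 0.64 for Timp4 and -0.37 for Col15a1. In all 20 genes lower in MRL the C57 mean was above its own day 0 mean, and in 14 of the 15 higher ones the C57 mean was below it. In 31 of the 35 the change between the days had an unadjusted p under 0.05, and Gbp3 alone was called for it. The selection favours genes in which a chance deviation of the day 1 arrays adds to the strain difference, so these counts describe the 35 genes and test nothing.

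Ppbp, a chemokine stored in platelet granules, had the largest difference of these 35 genes. In C57 replicates 1 to 4 it read 7.39, 6.06, 4.09 and 5.29, and in MRL replicates 1 to 4 it read 2.36, 2.31, 2.37 and 3.04. All C57 arrays exceeded all MRL arrays, with a spread of more than 3 log2 units among the C57 hearts. The difference was -3.19 (SE 0.39, adjusted p 4.87e-05) at day 1 and -0.04 at day 0. From day 0 to day 1 it rose by 3.34 in C57 (adjusted p 1.59e-04) and moved by 0.19 in MRL (adjusted p 0.92). The MRL mean is below every array's median, so the size is not exact. Ppbp passed the filter on low values only through C57 arrays of day 1, the group in which it is high. Its adjusted p is therefore no independent support for the difference. Pf4, the other platelet granule chemokine of the list, gave 7.80, 9.02, 8.26 and 7.82 in C57 and 8.20, 7.90, 7.26 and 8.47 in MRL. Those groups overlap, the difference of -0.27 was not called, and the mean level of the 5 tested erythroid and platelet genes was 5.22 to 5.80 in C57 and 4.63 to 5.10 in MRL. The red cell genes Hbb-b2, Alas2 and Slc4a1 differed by -0.04, -0.01 and 0.13. The part of platelets in the Ppbp value was not tested.

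Enzymes that cut the extracellular matrix and their inhibitors gave 0 higher and 3 lower calls among 20 tested genes. Mmp3, which degrades matrix proteins and activates other metalloproteinases, gave 5.36, 6.12, 5.45 and 5.24 in the C57 arrays and 3.99, 3.79, 4.85 and 3.94 in the MRL arrays. MRL replicate 3 came nearest to the C57 arrays without reaching them, and the difference was -1.40 (SE 0.20, adjusted p 1.62e-04), beside -0.11 at day 0 and -1.52 in the infarct region. The MRL mean of 4.14 lies below every array's median, so the size is not exact, and with the offset of 32 the day 1 difference was -0.66. The day 0 and day 5 means of both strains also lay below every array's median. Mmp3 therefore passed the filter on low values mainly through the C57 arrays of day 1, where it is high, and its adjusted p is no independent support. Timp4, the metalloproteinase inhibitor most typical of heart, gave 9.04, 7.12, 8.81 and 9.69 in C57 and 5.76, 5.65, 8.72 and 5.71 in MRL. One MRL array lay among the C57 arrays, the groups overlapped, and the difference of -2.21 just passed (adjusted p 0.047). Its call ended under 12 of 19 alternatives, among them centring on the median, and its other probe set, at -2.75, was not called. Plat, the tissue plasminogen activator, differed by -1.25 (SE 0.25, adjusted p 0.0055). Values of 8.14, 7.42, 7.34 and 8.32 were measured in C57 and of 6.22, 6.47, 6.80 and 6.73 in MRL. Its groups were apart, and the difference was -0.56 at day 0. The median of the 20 genes was 0.03.

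Lcn2, a siderophore-binding protein of the acute phase, rose in both strains, by 7.59 in C57 (adjusted p 1.73e-10) and by 6.12 in MRL (adjusted p 2.51e-09) from day 0. At day 1 its C57 arrays gave 10.25, 10.03, 11.19 and 9.87 and its MRL arrays gave 8.43, 8.97, 9.10 and 9.01. The groups did not overlap, and the level in MRL was lower by a difference of -1.46 (SE 0.37, adjusted p 0.032). In the infarct region the difference was -1.62 (adjusted p 0.015). Lrg1, a secreted glycoprotein induced by interleukin 6 and chosen after its values were seen, gave 12.08, 10.97, 12.26 and 11.49 in C57 and 10.22, 10.32, 10.84 and 10.71 in MRL. It differed by -1.18 (adjusted p 0.038) at day 1 and by 0.72 at day 0. The calls ended for Lcn2 under 6 and for Lrg1 under 9 of 19 alternatives, those without C57 replicate 1 or MRL replicate 1 included. Lcn2 was 1 lower call among 19 tested genes of the acute phase and interleukin 6 list, whose median was -0.25. The neutrophil list also holds Lcn2, its 1 lower call among 5 tested genes, with a median of -1.05 and a mean level of 6.31 to 7.11 in C57 and 5.23 to 6.82 in MRL. S100a8, a granule protein of neutrophils, gave 8.27, 7.29, 5.21 and 7.54 in C57 and 4.46, 4.64, 7.61 and 7.39 in MRL, and S100a9 gave 8.55, 7.85, 6.99 and 8.16 and 5.12, 5.73, 7.74 and 8.06. These overlap, neither was called (-1.05 and -1.23), and the part of neutrophils in the Lcn2 value was not tested.

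Acot1, a cytosolic thioesterase that frees fatty acids from coenzyme A, was lower in MRL at day 1. C57 hearts had 8.65, 7.88, 9.14 and 7.44, whereas MRL hearts had 5.78, 5.09, 7.34 and 6.62. The highest MRL array came close to the lowest C57 array without crossing it. The difference was -2.07 (SE 0.41, adjusted p 0.0055), beside 0.10 at day 0 and 2.70 for the rise in C57 from day 0 (adjusted p 0.0015). A fit on the 8 arrays alone ended the call at an adjusted p of 0.0998. It was the only call among 24 tested genes of fatty acid uptake and oxidation, whose median was -0.01. Car4, a membrane-bound carbonic anhydrase chosen after its values were seen, gave 9.74, 7.79, 8.76 and 9.59 in C57 and 6.45, 6.50, 8.68 and 6.89 in MRL. Its MRL replicate 3 lay above C57 replicate 2, the difference was -1.84 (adjusted p 0.036), and the call ended under 8 of 19 alternatives.

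Among genes higher in MRL at day 1 but not at day 0, Col15a1 encodes a collagen of the basement membrane zone. Across the C57 arrays it stood at 4.22, 6.92, 4.06 and 3.78, and across the MRL arrays at 7.48, 7.61, 6.12 and 6.33. C57 replicate 2 lay among the MRL arrays while the other C57 arrays were much lower. The difference was 2.14 (SE 0.54, adjusted p 0.035) and its call ended under 8 of 19 alternatives. Nr2c2ap, which binds a nuclear receptor and was chosen after its values were seen, gave 4.63, 5.16, 5.00 and 4.58 in C57 and 6.22, 6.82, 5.55 and 5.89 in MRL. The groups were apart, the difference was 1.28 (adjusted p 6.48e-04), and here the MRL mean had moved, by 1.24 from day 0 (adjusted p 0.0036) against 0.16 in C57. The call ended in the fit on the 8 arrays alone (adjusted p 0.053). Ddit3, a transcription factor of the endoplasmic reticulum stress response, gave 6.38, 7.37, 7.02 and 6.73 in C57 and 7.63, 7.45, 7.91 and 7.72 in MRL. The groups came within 0.1 of each other without overlapping, and the difference of 0.80 (adjusted p 0.013) was 1 call among 23 heat shock and endoplasmic reticulum stress genes, whose median was 0.08. The call ended without C57 replicate 1 and in the fit on the 8 arrays alone (adjusted p up to 0.13), and in the infarct region Ddit3 differed by -0.41, which was not called.

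Genes that glucocorticoids induce mostly had lower values in MRL at day 1, though few were called. Of 17 tested genes 16 had a difference below 0, their median was -0.89 against 0.02 over all tested probe sets, and 0 were called higher and 1 lower, which was Lcn2. Fkbp5, a chaperone partner of the glucocorticoid receptor and a sensitive target of it, gave 10.12, 8.75, 10.18 and 10.12 in C57 and 7.34, 7.37, 9.72 and 7.77 in MRL. MRL replicate 3 lay within the C57 range and C57 replicate 2 lay below the other C57 arrays. The difference of -1.74 was not called (adjusted p 0.12), although the dimmer Fkbp5 probe set was, at -2.09 (adjusted p 0.0094). Mt1 and Mt2, metallothioneins that bind zinc and copper, differed by -1.02 (adjusted p 0.074) and -1.33 (adjusted p 0.19). Sgk1, a kinase that promotes sodium uptake, gave 10.92, 9.01, 9.40 and 11.15 in C57 and 8.41, 8.97, 9.26 and 8.68 in MRL, which overlap, and differed by -1.29 (adjusted p 0.06). Cdkn1a, the cell cycle inhibitor p21, gave 9.93, 8.96, 9.71 and 10.81 in C57 and 7.08, 8.27, 10.28 and 8.45 in MRL and differed by -1.33 (adjusted p 0.21). Fkbp5, Mt1, Mt2 and Sgk1 were chosen after their values were seen.

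The same 2 arrays stood out across that list. Its mean level was 10.05, 8.94, 9.77 and 10.06 in the C57 arrays and 8.24, 8.47, 9.87 and 8.64 in the MRL arrays, so C57 replicate 2 was the lowest of its strain and MRL replicate 3 was the highest of its own. Without MRL replicate 3 the median was -1.21 and 8 of the 17 genes were called lower, and without C57 replicate 2 the median was -1.21 and 5 were called lower. Without C57 replicate 1 or MRL replicate 1, 0 were called. At day 0 the list's median was 0.37, with levels of 7.13 to 7.92 in C57 and 7.53 to 8.35 in MRL, and 0 genes were called. All 4 C57 arrays and 3 of the 4 MRL arrays of day 1 exceeded every day 0 array of their strain. The 13 tested clock and output genes gave 0 calls and a median of 0.01, and Dbp, a clock output gene chosen after its values were seen, differed by 1.72 (adjusted p 0.23).

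**Figure D4:**
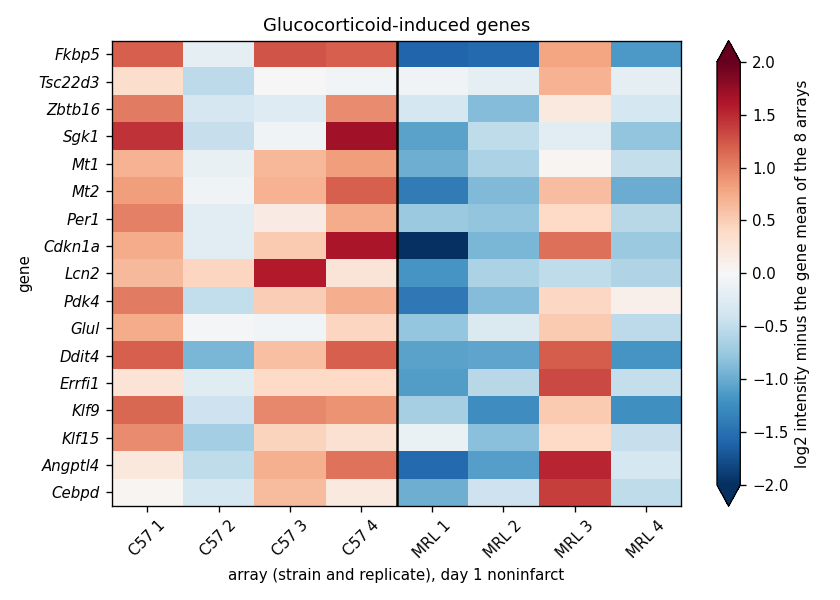
Each row is 1 of the 17 tested glucocorticoid-induced genes and each column 1 day 1 noninfarct array, 4 C57 and 4 MRL, with colour for the log2 intensity minus the gene's mean over the 8 arrays. C57 replicates 1, 3 and 4 and MRL replicate 3 are mostly red, and MRL replicates 1, 2 and 4 and C57 replicate 2 are mostly blue, as their list means of 8.24 to 10.06 show.

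The strain difference in MHC class II genes was small at day 1 and large at day 0. Of 6 tested genes 0 were called at day 1, with a median of -0.31, whereas 3 were called at day 0, with a median of -1.60. H2-Aa, a class II alpha chain, gave 6.00, 6.63, 6.04 and 6.42 in the C57 arrays and 7.35, 4.49, 3.21 and 5.79 in the MRL arrays at day 1. MRL replicate 1 was the highest of the 8 and MRL replicate 3 the lowest, so the spread within MRL exceeded the strain difference of -1.06 (adjusted p 0.52), and it was -4.09 at day 0 (adjusted p 0.0014). The other tested H2-Aa probe set gave 0.77 at day 1 (adjusted p 0.61), the opposite sign, and -0.98 at day 0, so H2-Aa has no settled direction at day 1. H2-Eb1 differed by -0.34 at day 1 and -2.48 at day 0 (adjusted p 1.27e-04), and Cd74, the invariant chain, by -0.25 and -2.08 (adjusted p 0.024). In Cd74 too MRL replicate 1, at 8.51, was the highest array and MRL replicate 3, at 5.81, the lowest. The change between the days was not called for any of these 3 genes, the smallest adjusted p being 0.26 for H2-Eb1. They were chosen after their values were seen, and the H2 genes are polymorphic between strains.

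Interferon-response genes gave 1 higher and 2 lower calls among 21 tested, with a median of -0.01 at day 1 and -0.77 at day 0, when 6 were called. Gbp3 was the higher one. Rsad2, an antiviral enzyme also called viperin, gave 7.01, 6.78, 7.62 and 5.56 in C57 and 5.16, 5.16, 5.18 and 5.16 in MRL. The MRL arrays were nearly identical, the groups did not overlap, and the difference of -1.58 (adjusted p 0.036) lost its call under 11 of 19 alternatives. It was -2.20 at day 0, and the other tested Rsad2 probe sets gave -0.67 and -0.92 at day 1, neither of them called. Ifi35, an interferon-induced leucine zipper protein, gave 6.70, 6.13, 7.17 and 6.10 in C57 and 5.47, 4.54, 5.09 and 5.34 in MRL. Its groups did not overlap, and the difference was -1.41 (SE 0.28, adjusted p 0.0048).

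Of the classical markers of a loaded heart only Acta1, given above, was called. Nppa, the atrial natriuretic peptide, gave 11.84, 13.45, 12.47 and 11.90 in C57. MRL replicates 1, 2 and 4, at 13.69, 14.47 and 13.92, lay above all C57 arrays, and MRL replicate 3 lay between the highest and the next C57 array. Its difference of 1.36 was not called (adjusted p 0.18), and the mean level of the 4 tested atrial and conduction genes, 5.38 to 7.39 in C57 and 5.22 to 7.76 in MRL, overlapped. Nppb, the B-type natriuretic peptide, differed by 0.38 (adjusted p 0.81). Myh7, the slow myosin heavy chain that returns under load, ranged from 6.98 to 10.26 in C57 and from 9.30 to 11.56 in MRL, and differed by 1.76 (adjusted p 0.28). Myh6, the main adult ventricular myosin, gave 15.53, 15.13, 15.33 and 15.30 in C57 and 15.39, 15.23, 15.43 and 15.23 in MRL, so the groups overlapped. Atp2a2, the calcium pump of the sarcoplasmic reticulum, differed by -0.14. In unoperated hearts of day 0 the differences were 1.75 for Acta1, 1.64 for Myh7 and 1.08 for Nppa. They were -1.05 for Nppb, -0.03 for Myh6 and -0.08 for Atp2a2. Acta1 was the only call among 11 tested fetal and stress genes, whose median was 0.38, and 0 of 22 sarcomere and calcium handling genes were called.

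Matrix and growth factor lists held a few higher calls in MRL. Lum, a proteoglycan that spaces collagen fibrils, gave 8.69, 8.74, 8.04 and 8.60 in C57 and 10.40, 10.05, 8.89 and 9.29 in MRL. The groups came close without overlapping, with a difference of 1.14 (SE 0.26, adjusted p 0.016). With Col15a1 it made 2 higher and 0 lower calls among 40 tested collagens and matrix proteins, whose median was 0.01. Col1a1, the main fibrillar collagen, differed by 0.72 and was not called, and Timp1, an inhibitor of metalloproteinases, by 0.46. Igfbp5, which binds insulin-like growth factors, gave 7.74, 8.50, 8.18 and 7.11 in C57 and 9.80, 9.33, 9.14 and 8.77 in MRL. It differed by 1.38 (SE 0.24, adjusted p 0.0019), while its other probe set gave 0.27 and was not called. Igf2, an insulin-like growth factor, differed by 0.88 (adjusted p 0.027) and had done so by 1.10 at day 0 (adjusted p 0.012). These were the 2 calls among 24 tested growth factor genes, whose median was 0.15. The calls of Lum and Igf2 ended under 4 and 7 of 19 alternatives, and that of Igfbp5 in the fit on the 8 arrays alone.

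The macrophage, smooth muscle and immediate early lists held 1 lower call each. Lyve1, a hyaluronan receptor of lymphatic vessels and of resident macrophages, gave 7.47, 7.48, 7.87 and 7.85 in C57 and 6.28, 6.84, 7.10 and 6.18 in MRL. The groups did not overlap, the difference was -1.06 (adjusted p 0.032), and the call ended under 9 of 19 alternatives. It was the only call among 25 monocyte and macrophage genes, whose mean level was 5.30 to 5.95 in C57 and 5.32 to 5.64 in MRL. Acta2, the smooth muscle actin, gave 10.64, 11.09, 10.87 and 11.12 in C57 and 10.12, 10.10, 9.84 and 9.85 in MRL. Its groups were apart, with a difference of -0.96 (SE 0.20, adjusted p 0.01). By the brightest probe set of each gene it was the only call among 13 smooth muscle and pericyte genes, whose median was 0.16. Rgs5 of that list had 1 of its 4 tested probe sets called lower, and the 4 ranged from -3.75 to 0.45. Klf4, a transcription factor of vessels and of the immediate early response, gave 9.46, 8.35, 8.57 and 9.18 in C57 and 7.36, 7.49, 8.22 and 8.00 in MRL. It differed by -1.12 (adjusted p 0.02), its call ended under 6 of 19 alternatives, and it was 1 call among 17 immediate early genes, whose median was -0.07. Thrsp was the only call among 7 adipose genes by the brightest probe set of each gene, and their median was -0.58. Fabp4, on the adipose and endothelium lists, had 1 of its 3 tested probe sets called lower, and the 3 ranged from -1.54 to -0.47. Car3, an adipocyte and muscle carbonic anhydrase, gave 4.74, 5.19, 4.80 and 4.94 in C57 and 8.29, 6.82, 6.63 and 5.83 in MRL, which do not overlap, but its difference of 1.98 was not called (adjusted p 0.064). Glo1 and Nnt were 2 higher calls among 26 antioxidant genes, whose median was 0.12.

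Beside the class II, cell cycle and clock lists given above, those without a call at this threshold were oxidative phosphorylation (23 tested, median -0.04), glycolysis and hypoxia response (20, 0.08), potassium channels (10, 0.54), atrium and conduction system (4, 0.52), cytokines, chemokines and adhesion molecules (18, 0.26), complement (11, -0.02), cell cycle inhibitors and p53 targets (18, -0.14), muscle ubiquitin ligases and atrophy genes (12, 0.03), fibroblast and epicardium markers (9, 0.17), endothelium markers (16, -0.13), nerve and Schwann cell markers (6, -0.02), T and natural killer cell markers (2, -0.19), B cell markers (2, 0.02), mast cell markers (2, 0.07), thymus markers (1, 0.06), and sarcomere genes (22, 0.04). Ccl2, the monocyte-attracting chemokine, ranged from 5.21 to 8.01 in C57 and from 5.46 to 9.34 in MRL and differed by 0.47, and Mki67, a marker of dividing cells, by 0.05. Neither was called. The fibroblast level was 6.60 to 6.71 in C57 and 6.78 to 7.08 in MRL, and the potassium channel level was 6.21 to 6.42 in C57 and 6.53 to 6.97 in MRL, without overlap in either. The MHC class I level, 7.52 to 7.73 in C57 and 6.87 to 7.35 in MRL, was lower in MRL without overlap. Of its 9 genes 6 had a difference above 0, and the called H2-D1 and H2-K1 have no settled direction. The erythroid and platelet level was also lower in MRL without overlap, where Ppbp differed by -3.19 and the list's median was -0.04. The skeletal muscle level was higher in MRL without overlap. Gene by gene, the arrays did not overlap in 0 of 9 fibroblast genes and 1 of 10 potassium channel genes, beside 7.82% of all probe sets tested.

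**Figure D5:**
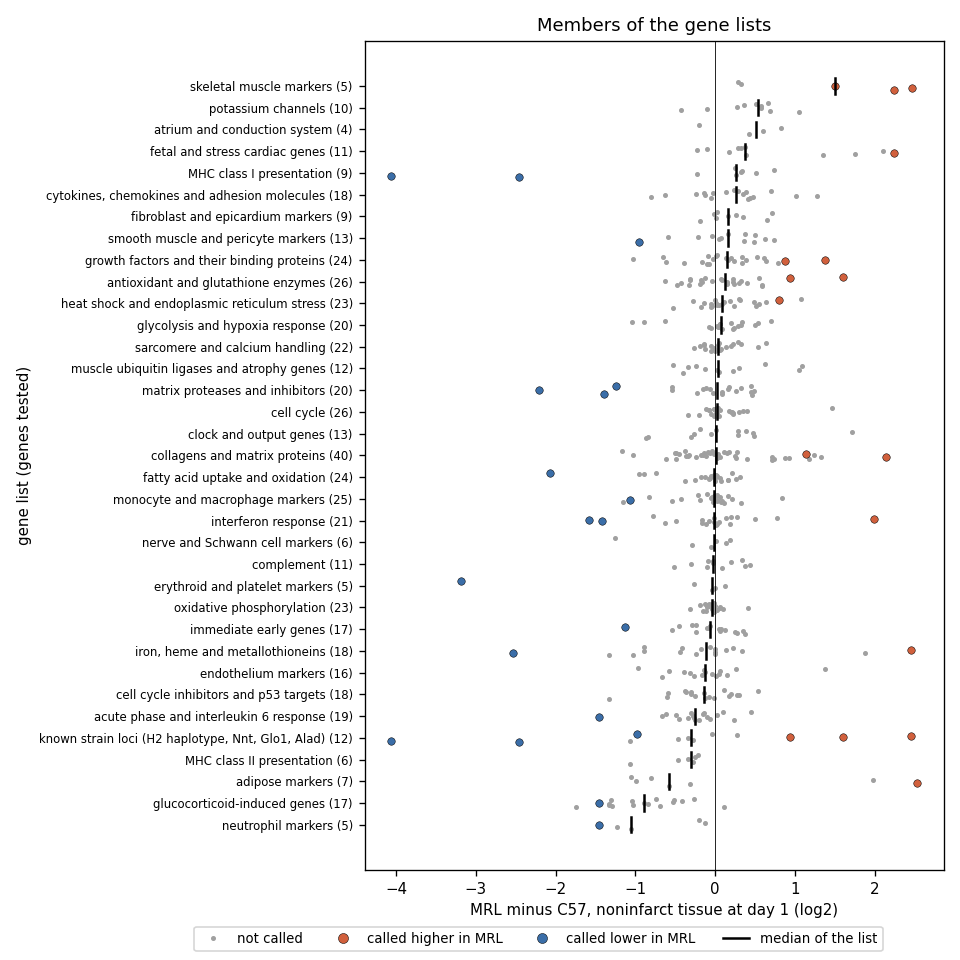
Difference between the strains at day 1 (MRL minus C57, log2) for each tested gene of the lists with 3 or more tested genes, 1 row per list with the number of genes tested in brackets. Large coloured points were called, small grey points were not, and the vertical bar is the median of the list. The bar of the skeletal muscle list lies at 1.51, those of the neutrophil and glucocorticoid lists lie at -1.05 and -0.89, and most others lie near 0.

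The strain difference was also set against that of the infarct region of day 1, where 128 of 12834 probe sets (0.997%) were called. In a test of the difference between the regions 0 of 13138 probe sets (0%) were called by limma, 192 (1.46%) had an unadjusted p under 0.05, and the smallest adjusted p was 0.70. Noninfarct and infarct arrays of a strain may come from the same hearts, which the fit could not use. B4galnt2 differed by 3.20 in infarct tissue, Alad by 2.58, Acta1 by 2.85, Rpgrip1 by -4.78 and Pttg1 by -3.87, each called there too. Serpina1b at 0.71, Ppbp at -2.24 and Gbp3 at 1.16 were not. Against day 5 the test called 2 of 12344 probe sets (0.0162%), and 544 (4.41%) had an unadjusted p under 0.05. One was Vsig4, a complement receptor of tissue macrophages, whose strain difference was 0.16 at day 1 and 2.26 at day 5, and the other has no single gene symbol. The Vsig4 means of 2.44 in C57 and 2.59 in MRL at day 1, and of 2.64 in C57 at day 5, lay below every array's median. Its differences are therefore not exact sizes.

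Agreement between probe sets of a gene was counted. Of 127 genes with 2 or more tested probe sets and at least 1 call, 25 had every probe set called in the same direction and 4, H2-D1, Pdlim5, Sdc4 and Ywhaz, had calls in both directions. In 82 the call rested on 1 probe set of several. Counts of called genes, those of the lists included, use only the brightest probe set of a gene, and 62 further genes were called by another probe set only. Sox4, a developmental transcription factor chosen after its values were seen, was called in 2 of its 4 probe sets, at 1.78 and 1.39, and the others gave 1.21 and 0.31. The call of its brightest probe set ended under 6 of 19 alternatives, and C57 replicate 4, at 4.89, lay far below the other C57 arrays at 7.44 to 7.66, and without it the difference was 1.12 (adjusted p 0.092). In the gene order of the GRCm38.p6 assembly, 10 of 7293 adjacent pairs of tested genes were both called, 7 in the same direction, and 20 of the 188 called genes (10.6%) belonged to such a pair. Of all placed genes 2.57% were called. That is a share for a single gene, while a gene can be in a pair through the neighbour on either side, so the percentages are not alike. The number of such pairs by chance was not computed. Hfe lay beside H1f2, Alad beside Hdhd3, Acta2 beside Fas and Acta1 beside Rab4a, each pair with differences of the same sign. Tamm41 and Timp4, Dusp26 and Tti2, and Dlgap4 and Myl9 were pairs of opposite sign.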

How the data were processed

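Left ventricular RNA was measured on Affymetrix MOE430A arrays. The authors deposited 1 linear intensity per probe set and array, and the submitters' processing notes name GCRMA with no version number. Log2 was taken of these deposited intensity values with no offset. Of 22690 probe sets, 64 controls were left out. In the platform annotation, 20380 probe sets had 1 gene symbol, 691 several and 1555 none. Symbols were checked through Entrez ID for 20351 of them and 0 changed.

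Two-sided tests came from limma 3.58.1 under R 4.3.3, with eBayes moderation and Benjamini-Hochberg adjustment. The model was fitted to the 23 noninfarct arrays with 1 mean for each of 6 groups, so that all groups share the estimate of spread. The regions were compared in a fit of all 46 arrays. Testing required a value above its array's median in 3 or more of the fitted arrays. A gene that is high in 1 group only, as Ppbp, can pass this filter through that group alone. A call is an adjusted p under 0.05. The scripts were tested on simulated data. A gene is represented by its tested probe set with the highest mean over the 46 arrays.

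Genes are named if they are among the 10 largest rises or 10 largest falls (called, without overlap, clone-like symbols passed over), among up to 4 called members of a list, called in a test of a difference (up to 5 a direction), or 1 of 17 index genes. Genes named after their values were seen are marked as such. The 39 gene lists, the samples and the tests were chosen with earlier results of these data known. Lists share members, so a gene can be counted in several. The number of arrays limits the precision, no detection calls were used, and 29 of the 188 called genes had a group mean below every array's median, so that the size of their difference is not exact. p-values measure the spread between arrays that the labels call biological replicates. The replicate numbers do not pair the strains, whose mice differ: same-numbered arrays had correlations of their deviations from -0.12 to 0.45. Alternatives were the filter, normalization, an offset of 32, the arrays in the fit, the variance model, the replicate number as a block, the mean over a gene's probe sets, and leaving out each replicate. No sequence was needed for the comparison.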

Additional observations from a re-analysis of the deposited data

Results flagged for a closer look

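Of 136 groups of 4 arrays examined for the named genes, 10 held an array far from the other 3 by Dixon's limit, where chance alone gives about 1 in 20. The flags fell on C57 replicates 2 and 4, MRL replicates 3 and 4 (2 each) and MRL replicates 1 and 2 (1 each).

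Timp4 stood at 8.72 in MRL replicate 3, against 5.65 to 5.76 in the other MRL arrays. Fkbp5 stood at 8.75 in C57 replicate 2, against 10.12 to 10.18. Both fall in the arrays that also stood apart on the first principal component and in the glucocorticoid list. Col15a1 stood at 6.92 in C57 replicate 2, against 3.78 to 4.22. Sox4 stood at 4.89 in C57 replicate 4, against 7.44 to 7.66. Ppbp stood at 3.04 in MRL replicate 4, against 2.31 to 2.37, and Vsig4 at 3.02 in MRL replicate 1, against 2.40 to 2.48. Il15 stood at 3.48 in MRL replicate 4, against 3.71 to 3.74, and H2-K1 at 4.96 in MRL replicate 2, against 5.30 to 5.36. Stk25 stood at 6.16 in C57 replicate 4, against 6.04 to 6.06, and Rsad2 at 5.18 in MRL replicate 3, against 5.16 to 5.16, where the whole group spans little.

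In tests of a difference the strain difference of Gbp3 changed by 2.31 from day 0 to day 1 (-0.32 to 1.99, adjusted p 0.0044). Vsig4 differed by -2.10 between the days, from 0.16 at day 1 to 2.26 at day 5 (adjusted p 0.0058), with the day 1 means of both strains below every array's median. A probe set with no single symbol differed by -1.70, from -2.13 at day 1 to -0.43 at day 5 (adjusted p 0.0076).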

How the results depend on the processing

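The count of strain differences at day 1 stayed within 1.5 times 342 under the filter, normalization, offset, variance and block alternatives and in the fit of all 46 arrays, from 262 with no filter to 377 with the replicate number as a block. It was 211 on the 8 arrays alone and 632 without C57 day 5 replicate 3. Leaving out single replicates gave 203 to 526. At day 0 the count of 222 became 462 on the compared groups alone, 369 without C57 day 5 replicate 3 and 136 to 174 without single replicates. At day 5 the count of 154 became 24 on the compared groups alone, and without single replicates 101 to 471, the highest without C57 day 5 replicate 3.

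The day 1 against day 0 test called 1 probe set, 2 in the fit of all 46 arrays, 2 with no filter, 0 on the compared groups alone, and 1 to 6 without single replicates, the highest without MRL replicate 3. With the offset of 32 it called 1, Plekhh1, in place of Gbp3. The day 1 against day 5 test called 2, 1 in the fit of all 46 arrays, with the offset of 32 or with the stricter filter, 0 on the compared groups alone, 11 without C57 day 5 replicate 3, and 0 to 11 without single replicates. The test between regions called 0, and 0 to 4 without single replicates. The Gapdh difference of -0.13 lay between -0.19 and -0.07. Causes of these shifts were not tested.

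Of 68 named genes 46 were called, and 28 of them kept the call under every alternative in which they were tested, while 18 lost it under at least 1. Of those 28, Ppbp was tested under only 15 of the 19 alternatives and Mmp3 under 18. Of the called genes 0 changed sign under an alternative, and 5 of those not called did: Ccl2, Cd74, Mki67, Myh6 and Nppb. What limits the comparison is the number of arrays, low signal in genes near the array medians, and single arrays that move the count of calls.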

Other observations

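Several called genes outside the lists belong to pairs of neighbours. Capg, an actin-capping protein of macrophages, differed by -2.01 and its neighbour Vamp8, a protein of vesicle fusion, by -0.95. Myl9, a regulatory myosin light chain of smooth muscle, was higher in MRL at 2.19, while its neighbour Dlgap4 was lower at -1.13. Fas, the death receptor beside Acta2, differed by -0.98. Sparcl1, a matrix protein related to osteonectin, differed by 1.00, and had differed by 0.63 at day 0 and 0.71 at day 5. These genes were chosen after their values were seen.

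Of the 342 called probe sets 39 had no single gene symbol. They include the probe set with the largest higher value in MRL, at 4.35, and others at -5.60 and -4.16, which also differed by -3.44 and -1.99 at day 0.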
